A study of Mus musculus with 2 samples.

Results

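Single-exon antisense loci are stretches of the mouse genome where unspliced long reads lay on the strand opposite an annotated gene. They were chosen from 2 deposited tables of transcript models: a model entered if its class was antisense, if it had 1 exon and if at least 2 reads were assigned to it. That left 5057 of 103386 models in replicate 1 and 4044 of 100292 models in replicate 2. Models of the same strand that overlapped by at least 1 base were merged, which gave 6827 loci from 9101 models. The class, the exon number and the read minimum chose the loci, so their number and their abundance are a description with no test. The only test made was of reads between the libraries, on which the read minimum bears.

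The study measured RNA of the adrenal gland of 10-day-old female mice of the F1 hybrid strain B6CASTF1/J by long-read RNA sequencing, in which 1 read can span a whole transcript. There was 1 group with 2 libraries, replicate 1 and replicate 2, and there was no treatment, mutant or second tissue. The library texts of both replicates name the same animal while their tissue texts name different ones, so 1 animal and 2 animals cannot be told apart, and the spread between the libraries may be technical. Without the spike-in controls the libraries held 593058 and 772037 reads, and a feature with 0 reads may lie at up to 5.06 CPM in replicate 1 or 3.89 CPM in replicate 2 (3 counts), where CPM is the count scaled to a common library size. Intervals and these limits cover counting error only. The tissue label was checked against marker genes: 6 markers of the adrenal cortex summed to 10001 and 16010 sense reads in replicates 1 and 2, and 5 markers of chromaffin cells, the catecholamine cells of the medulla, to 2897 and 4180. Genes of neighbouring or carried-over tissue were present as well. The 5 adipocyte markers had 5448 and 10697 reads, the 4 liver markers 3990 and 832, the 5 striated muscle markers 4667 and 1790, the 2 erythroid markers 2607 and 2550, and the 4 kidney markers 0 and 440 in replicates 1 and 2. Their part in the results on loci was not tested.

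Natural antisense RNA is transcribed from the strand opposite a gene and can overlap that gene's start, body or end. Some such RNAs regulate the gene they overlap, for many no role is known, and unspliced ones are hard to tell from by-products of copying RNA into DNA. A messenger RNA normally receives its poly(A) tail a short way after a signal of the form AATAAA or ATTAAA. An oligo(dT) primer, which many cDNA protocols use to start at that tail, can also anneal to a run of A inside an RNA. How the cDNA of these libraries was primed is not given in the sources used here.

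The sequence at the 3′ end of a locus carries a feature that the rule did not use and that most of the ends that were read shared. Each locus is named by the gene on the other strand, and its end is that of its model with most reads. The lines that follow show 30 bases on the strand of the locus, in GRCm38, for abundant loci on the last or only exon of the opposite gene; the last 10 bases of the locus are in lower case and the 20 bases just beyond it in capitals.
Tubb5 (a β-tubulin), chr17:35834684-35834713, plus strand: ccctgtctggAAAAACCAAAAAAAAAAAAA
2900097C17Rik (a lincRNA), chr2:156391505-156391534, plus strand: cacaaaatgtAAAAAAAAAAAAAAAAAAAA
Tacc1 (a coiled-coil protein of the centrosome), chr8:25158024-25158053, plus strand: agattaaggcAAAAAAAAAAAAAAAAAAAA
Sdc4 (a cell surface proteoglycan), chr2:164425125-164425154, plus strand: acggagcattAAAAAAAAAAAAAAAAAAAA
Cavin1 (a coat protein of caveolae), chr11:100958465-100958494, plus strand: ccggtttgttTAAAAAAAAAAAAAAAAGCC
Spry2 (an inhibitor of receptor tyrosine kinase signalling), chr14:105892586-105892615, plus strand: cacatggaccAAAAAAAAAAAAAAAAAAAA
Dpysl2 (a protein of axon growth), chr14:66804875-66804904, plus strand: atttagtattAAAAAAAAAAAAAATCTCTC
These bases belong to the genome, read through the opposite transcript, and not to a tail added to the RNA. In each of the 7 the locus stopped at or next to the first base of a run of A.

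The other kind of end is rarer. The 4 lines that follow show the last 30 bases of loci with a poly(A) signal and fewer than 12 A in the 20 bases beyond the end, with the signal nearest the end in capitals.
Cln8 (a protein of the endoplasmic reticulum), chr8:14897938-14897967, minus strand: tgaAATAAAtaggcatcatacctcctcata
Alg11 (a mannosyltransferase of protein glycosylation), chr8:22068289-22068318, minus strand: atgataaagAATAAAtttaggaaatattta
Fancl (a ubiquitin ligase of DNA repair), chr11:26386758-26386787, minus strand: gtaAATAAAttgtacattcaatacatcatg
Socs4 (a suppressor of cytokine signalling), chr14:47291039-47291068, minus strand: ataaaaaaaataaattgatctggaATTAAA
The reads behind these loci were few: 15 and 10 for Cln8, 7 and 13 for Alg11, 4 and 5 for Fancl, and 6 and 3 for Socs4, in replicates 1 and 2.

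Most of the ends that could be read were A-rich. Sequence came from annotated transcripts of the opposite genes, so only ends within an exon were read, and ends placed exactly on an annotated exon boundary were left out; 846 of the 6827 loci remained. Of these, 678 had at least 12 A in the 20 bases after the end, or 80.1% (95% exact binomial interval 77.3 to 82.8%), against 2.66% of 60503 windows taken along the same transcripts. A run of 6 A occurred in 70.1% of the loci and in 1.98% of the windows. The motifs AATAAA or ATTAAA, searched on the strand of the locus in the 50 bases before the end, were found in 91 loci, or 10.8%, and in 5.77% of the windows. Both features met in 72 loci, 606 were A-rich without the signal, 19 had the signal alone and 149 had neither. The signal was about as frequent in A-rich ends (10.6%) as in the other 168 (11.3%). A match describes the letters in the window and does not show that a signal was used.

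**Figure D1:**
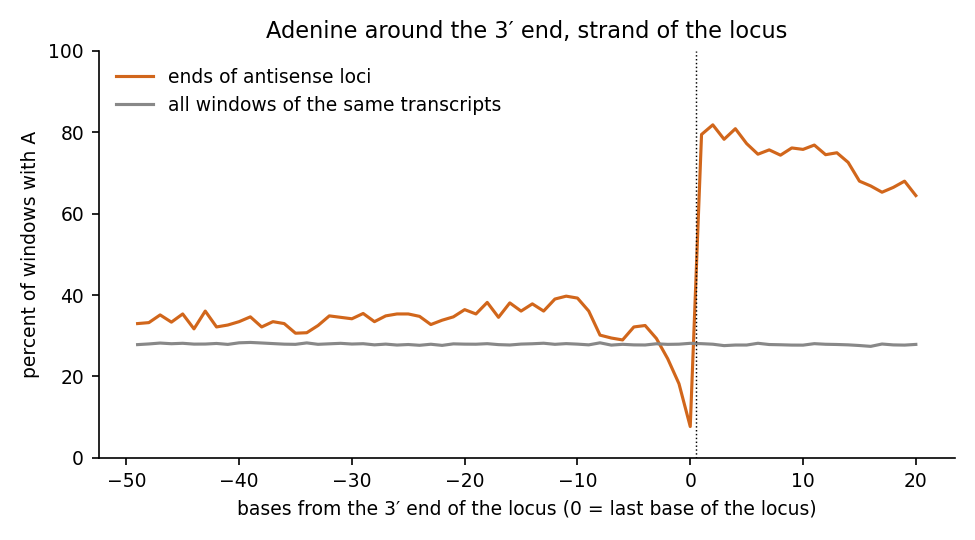
Percent of windows with A at each base from 49 bases before to 20 bases after the 3′ end, on the strand of the locus, for 846 ends of antisense loci (orange) and for all windows of the same transcripts (grey); 0 is the last base of the locus. A stands at the last base in 7.68% of the loci, at the next base in 79.4% and at the base after that in 81.8%, against about 28% in the windows throughout.

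Base by base, A was much more frequent beyond the end than before it, where it reached 39.7% at 11 bases before the last base. A made up 79.4% of the first base and 64.4% of the base at position 20 after the end, against 28.0% and 27.9% in the windows. It was rare at the last base of the locus itself, at 7.68%.

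The A-rich share lay between 78.3% and 82.6% whatever the number of reads of a model. It was 79.8% of 659 ends in replicate 1 and 80.1% of 639 ends in replicate 2. For models of at least 10 reads it was 78.3% in replicate 1 and 82.6% in replicate 2. Models of 2 reads, just inside the rule, had 80.9% and 78.3%, and models of 1 read, just outside it, 78.4% and 80.6% in replicates 1 and 2. Loci with models in both libraries had 79.4% of 379 ends, and loci with models in 1 library 80.7% of 467. By position the share was 78.5% of 679 ends on last exons, 66.7% of 21 on first exons, 92.9% of 14 on internal exons and 91.7% of 72 on single-exon genes. Introns are thinly covered here, since an intron of one transcript has sequence only where it is an exon of another, and 52 of those 60 ends, or 86.7%, were A-rich.

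Single-exon models on the sense strand ended differently where their ends could be read. Only models of the deposited classes ISM and Genomic were taken, 6503 with at least 2 reads in replicate 1 and 5753 in replicate 2. Few of their ends were read. These were A-rich in 14.3% of 566 cases in replicate 1 and 12.2% of 531 in replicate 2, and had a poly(A) signal in 64.3% and 62.3%. The ends read of antisense loci and of these sense models thus lay far apart in both features in each library, and no test was made of the difference. Spliced antisense models gave only 7 and 3 readable ends, of which 6 and 3 were A-rich. Whether the A-rich ends arose in the cell or while the cDNA was made was not tested.

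The 3′ ends recurred between the libraries more precisely than the 5′ ends. Among 1907 loci with 1 model in each library, the 3′ ends lay on the same base in 65.5% and the 5′ ends in 28.4%. Many ends in the deposited models sit on an annotated exon boundary of either strand: 20.8% of 3′ ends and 28.4% of 5′ ends in replicate 1, and 24.7% and 31.7% in replicate 2. Without those, the 3′ ends were identical in 60.1% of 1359 loci and within 10 bases in 80.0%. The 5′ ends were identical in 17.8% of 1158 loci and within 10 bases in 36.4%, with a median distance of 202.5 bases.

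**Figure D2:**
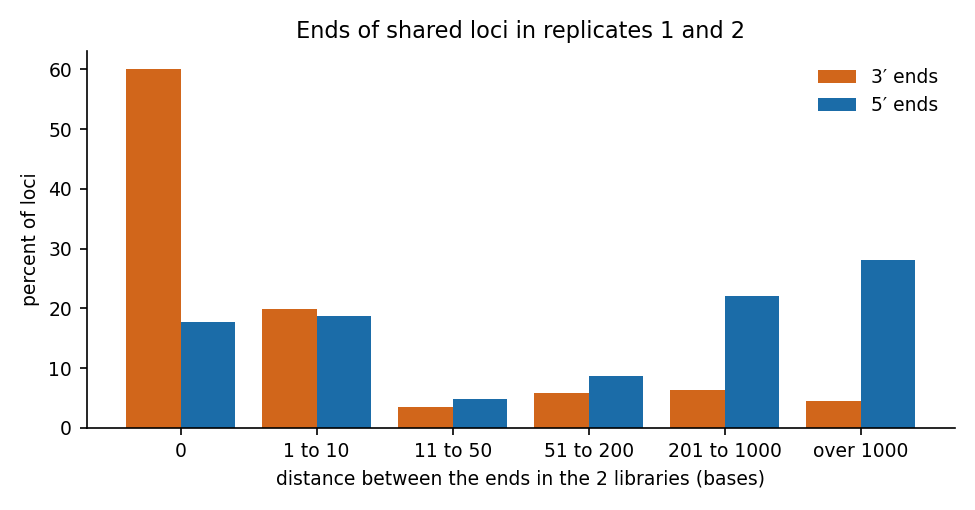
Distance in bases between the ends of a locus in replicate 1 and in replicate 2, as percent of loci, for 3′ ends (orange, 1359 loci) and 5′ ends (blue, 1158 loci) that are not on an annotated exon boundary. The 3′ ends are mostly identical (60.1%) or within 10 bases, while 28.1% of the 5′ ends are over 1000 bases apart.

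Some ends of the deposited models fell exactly on annotated positions. In replicate 1, 426 of the models, or 8.42%, began on exactly the base where the opposite gene is annotated to end, while 37 began at 1 to 50 bases from it. In replicate 2 these were 359 (8.88%) and 40. In addition, 73 loci, with 152 and 205 reads in replicates 1 and 2, were listed as 1 base long, for example the locus opposite Lrrc8a, with 17 and 24 reads, at chr2:30262827. A model's ends are therefore not the ends of each read. Few models began shortly after an annotated gene of their own strand: 2.65% in replicate 1 and 3.12% in replicate 2 lay within 1 kb after such a gene's 3′ end, and 9.27% and 10.6% within 5 kb.

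Most loci lay in introns, but relative to the length of the genes they were concentrated on last exons. Of the 6827 loci, 5102 (74.7%) covered mainly intron, 1132 (16.6%, interval 15.7 to 17.5%) the last exon, 271 (3.97%) the first exon, 205 (3.00%) a gene of 1 exon and 74 (1.08%) an internal exon. A further 43 (0.630%) had no annotated gene on the other strand in the reference annotation. Introns make up 92.0% of the bases of these opposite genes, last exons 4.45%, first exons 1.17%, internal exons 1.75% and genes of 1 exon 0.649%. The shares of loci on last exons, first exons and single-exon genes were thus above their shares of bases, and those in introns and on internal exons below. A whole locus takes 1 class while gene length is counted by the base, so an exon shorter than the locus can lose it to another class. Loci on internal exons were 284 bases long at the median, and their lower share cannot be read as a shortfall. The loci were 1476 bases long at the median, with 1022 on last exons and 1681 in introns.

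**Figure D3:**
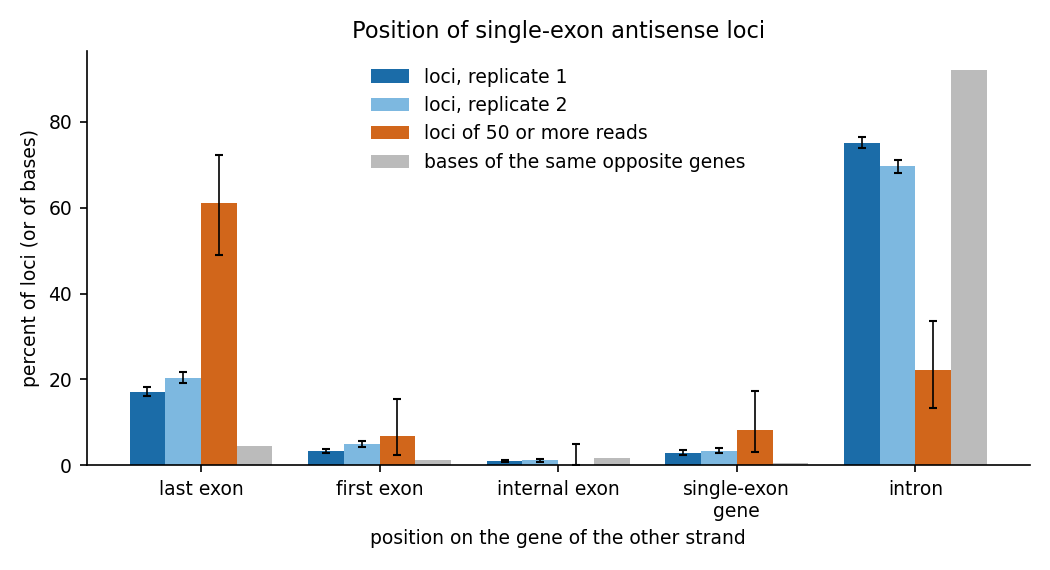
Percent of loci by position on the opposite gene, for loci of replicate 1 (dark blue), loci of replicate 2 (light blue) and loci of 50 or more reads (orange), with 95% exact binomial intervals, beside the percent of bases of the same genes in each class (grey). Last exons hold 17.2% and 20.4% of the loci in replicates 1 and 2 and 61.1% of the 72 loci with most reads, against 4.45% of gene bases.

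The concentration on last exons was seen in both libraries and was stronger for abundant loci. In replicate 1, 17.2% of 4950 loci were on last exons, 3.23% on first exons and 75.2% in introns. In replicate 2 the shares were 20.4%, 4.88% and 69.6% of 3933. Of the 72 loci with at least 50 reads over both libraries, 44 were on last exons (61.1%, interval 48.9 to 72.4%), 16 in introns, 6 on single-exon genes, 5 on first exons and none on internal exons. Last exons held 30.5% of all locus reads, introns 52.2%, single-exon genes 11.3% and first exons 4.84%. The share of single-exon genes rested on 1 locus: without Gm26917, which held 7.41% of all locus reads, it was 4.20%, and that of last exons 32.9%.

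**Figure D4:**
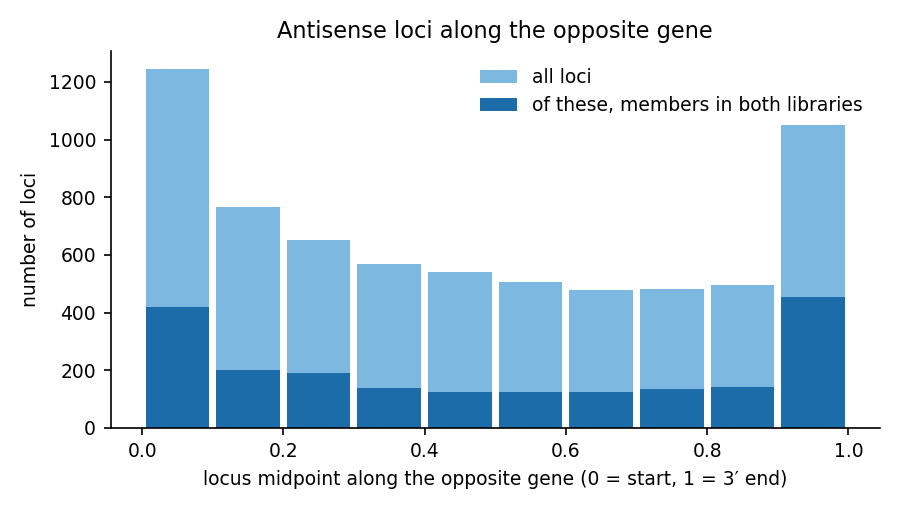
Number of loci by the place of their midpoint along the opposite gene, in bins of 0.1 of its length, with 0 at the gene's start and 1 at its 3′ end; the dark part of each bar is the loci with models in both libraries. The first bin holds 1246 loci and the last bin 1051, while the bins between 0.5 and 0.9 hold 479 to 505 each. Midpoints outside the gene are counted in the bin of the nearest end.

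Along the gene, loci were most frequent at both ends, where loci with a midpoint outside the gene were also counted. With the gene cut into bins of 0.1 of its length, the first bin held 18.4% of the loci and the last bin 15.5%, against 7.06% in the least filled bin. Of the 1246 loci in the first bin, 419 had models in both libraries, and of the 1051 in the last bin, 454. The loci were spread over 4376 opposite genes, of which 2987 had 1 locus and 107 had at least 5. Rora, a nuclear receptor, had 20 loci, 19 of them in introns, with 87 and 23 reads in replicates 1 and 2. Zbtb20, a zinc finger repressor, and Zfhx3, a homeobox factor, had 13 each. Nfia, a transcription factor of the nuclear factor I family, had 12 loci with 257 and 300 reads in replicates 1 and 2, of which 7 had models in both libraries. These are genes with long introns, and the number of loci was not scaled by gene length.

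Protein-coding genes were opposite 6505 of the loci (95.3%) and lincRNAs opposite 101. In 388 loci there were several opposite genes, and the one with the longest overlap was used. Another 101 loci overlapped an annotated gene on their own strand as well, so their reads cannot be assigned to an antisense RNA alone. Spliced antisense models shared bases with 181 loci, or 2.65%.

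Few reads stood behind most loci. The models had a median of 2 reads in replicate 1 and 3 in replicate 2; 2573 and 1905 had exactly 2 reads, 331 and 367 had at least 10, and 11395 and 8597 single-exon antisense models had 1 read and stayed outside the rule. Models of 1 read were shorter, at a median of 728 and 707 bases, than models of 2 reads, at 1156 and 1083 bases in replicates 1 and 2. All single-exon antisense models together, 1-read models included, held 6.01% of reads in replicate 1 and 4.10% in replicate 2.

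Models in both libraries were found for 30.1% of the loci, and for nearly all abundant ones. Of the 4950 loci of replicate 1, 2056 were also loci of replicate 2, or 41.5% (interval 40.2 to 42.9%), and they were 52.3% (50.7 to 53.8%) of the 3933 loci of replicate 2. These shared loci held 65.8% and 71.1% of the locus reads in replicates 1 and 2. Sharing followed abundance: of the loci with at least 20 reads, 97 of 102 in replicate 1 and 121 of 127 in replicate 2 were shared, and of the loci with 2 reads, 22.1% and 32.5%. It also differed by position, with 45.9% of the last-exon loci, 36.1% of the single-exon genes, 29.9% of the first-exon loci, 26.6% of the intron loci and 25.7% of the internal-exon loci found in both. These shares by position were not tested, and last-exon loci had more reads, with a median of 5 against 3 in introns.

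Part of the difference between the lists is the read minimum. Of the 2894 loci of replicate 1 alone, 1024 had a 1-read antisense model in replicate 2 and 1752 had no model of that strand there. Of the 1877 loci of replicate 2 alone, 792 had a 1-read antisense model in replicate 1 and 969 had no model of that strand. Over the 2056 shared loci, log2(CPM + 1) of replicates 1 and 2 gave r = 0.780 (Pearson) and rho = 0.618 (Spearman). Over all 6827 loci the values were 0.198 and 0.0787. The loci share the 2 libraries and their depth, and the minimum of 2 reads shapes both figures.

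**Figure D5:**
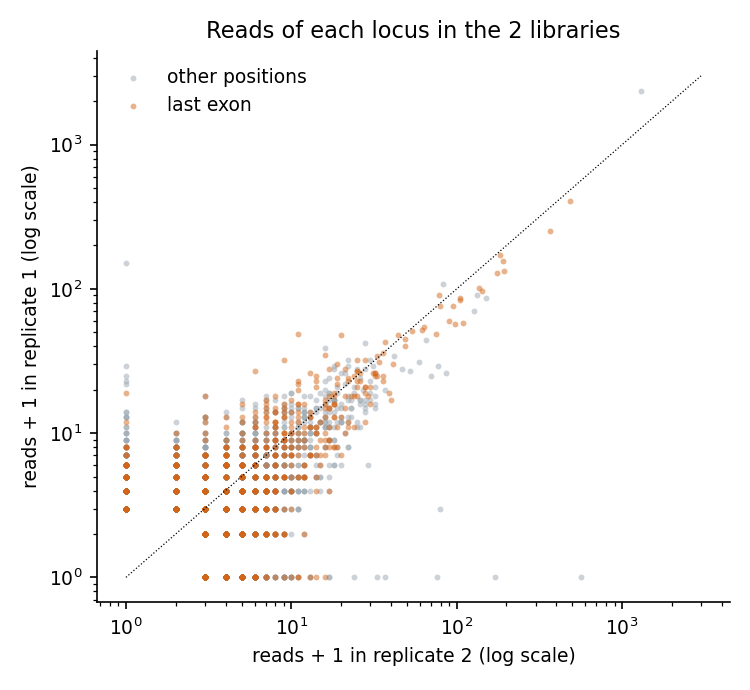
Reads plus 1 of each of the 6827 loci in replicate 1 (vertical axis) and replicate 2 (horizontal axis), both on log scales, with last-exon loci in orange, other loci in grey and the line of equal reads dotted. Most loci of many reads lie near the line, with Gm26917 at the top right (2364 and 1306 reads in replicates 1 and 2), while 11 loci of 20 or more reads in 1 library have 0 in the other.

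The 12 loci with most reads held 16.1% of all locus reads, and 8 of them were on last exons. The locus opposite the lincRNA Gm26917, at chr17:39843013-39846245 on the minus strand, had 2364 and 1306 antisense reads in replicates 1 and 2, beside 77 and 77 sense reads of Gm26917. It was the most abundant locus in both libraries, and its antisense share of the pair was 96.8% and 94.4%. Close by on the plus strand, at chr17:39846353-39846958, lies a locus opposite CT010467.1, which is annotated as ribosomal RNA. That locus had 107 and 82 reads. Whether the reads opposite Gm26917 come from ribosomal RNA was not tested. The locus opposite Actb, which encodes cytoplasmic β-actin, had 408 antisense reads in replicate 1 and 482 in replicate 2, beside 501 and 612 sense reads; it lay on the last exon, at chr5:142902445-142903654 on the plus strand. The locus opposite Tmem250-ps had 250 and 364 antisense reads, beside 6 and 7 sense reads.

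Some genes had more antisense than sense reads in both libraries. The locus on the last exon of Nfia had 133 and 191 antisense reads, beside 24 and 23 sense reads. The locus on the last exon of Sept2, a GTP-binding septin of the cytoskeleton, had 170 and 181 antisense reads, beside 12 and 2 sense reads. These are the sense reads of 1 of the 2 annotated genes opposite that locus, and those of the other were not counted. Both loci were far above the sense reads of the gene they were paired with in replicates 1 and 2.

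A further 4 abundant loci had models in both libraries. Cdv3 had 128 and 174 antisense reads and 22 and 24 sense reads. Tubb5 had 100 and 135 antisense reads and 273 and 333 sense reads, so that its antisense share was 26.8% and 28.8%. Dhrs3, a retinal reductase, had an intron locus with 85 and 149 reads, beside 45 and 58 sense reads. The lincRNA 2900097C17Rik had 90 and 132 antisense reads, beside 51 and 49 sense reads. For none of these 4 did the libraries differ at an adjusted p below 0.05 in the test described further on.

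First-exon and internal-exon loci were smaller. The first-exon locus of Ptp4a2, a small tyrosine phosphatase, had 69 and 127 antisense reads, beside 92 and 111 sense reads. Its paralogue Ptp4a1 had an intron locus with 25 and 85 reads, beside 4 and 20 sense reads. Those are the sense reads of 1 of the 2 annotated genes opposite that locus. The first-exon locus of Tbx3, a T-box transcription factor, had 30 and 58 reads, but an annotated antisense gene, Tbx3os1, lies on that strand. Vps26c, a subunit of the retriever complex of endosomal recycling, had 19 and 36 reads on a first exon, beside 33 and 56 sense reads. The internal-exon locus with most reads was that of Arglu1, a splicing regulator, with 12 and 21 antisense reads beside 48 and 67 sense reads, and 18 of the 20 bases after its end were A. The other internal-exon loci chosen for their reads, opposite Srrm2, B4galt3 and Cic, had 5 to 10 reads in each library.

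Among pairs with at least 10 antisense reads and at least 1 sense read, the highest antisense shares were those of 5 loci. Spry2 had 48 and 74 antisense reads in replicates 1 and 2 and 1 sense read in each, an antisense share of 98.0% and 98.7%. Klhl31, a Kelch-family protein, had 47 and 19 antisense reads beside 1 and 0 sense reads. Gm26944 had 25 and 19 beside 1 and 0, the sense reads of 1 of the 2 annotated genes opposite its locus. Fam178b had 10 and 25 beside 0 and 1. These 4 loci and Tmem250-ps were chosen for this share, so it is a description.

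Set against all sense reads of the opposite gene, antisense reads were the minority at the median. In 6784 pairs of a locus and an opposite gene, antisense reads were 10.6% of the antisense and sense reads at the median, with quartiles of 4.35 and 25%; in the single libraries the median was 16.7% in replicate 1 and 15% in replicate 2. Set only against sense reads of models that overlap the locus, the median was 100%. The antisense share was over 50% in 667 pairs (9.83%), and in 260 of the 843 pairs with at least 10 antisense reads. In 169 pairs the gene had no sense read. Antisense and sense reads were nearly unrelated over the 6784 pairs on the log2(CPM + 1) scale, with Pearson's r of 0.0959 and Spearman's rho of 0.0995. Loci of the same gene share its sense reads in these pairs. Genes without a locus are not among the pairs, and the read minimum cuts off low antisense counts. Reads of sense models that actually cover the locus were absent in 3518 pairs (51.9%) and single-exon sense models overlapped 1207 loci (17.8%).

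The share of genes with a locus was lowest for genes with few sense reads. Of 7612 genes with 1 to 9 sense reads, 10.4% had a locus, of 7947 with 10 to 99 reads 31.3%, of 2453 with at least 100 but fewer than 1000 reads 35.8%, and of 167 with at least 1000 reads 34.1%. The median antisense share in these classes was 42.9%, 10.6%, 2.00% and 0.203%. The median reads of a locus were 3, 3, 4 and 4, so the share fell with the sense reads that define the classes. The intervals of the last 3 classes overlapped or lay close together, while that of the lowest class, 9.69 to 11.1%, was far below them.

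The spike-in controls give a reference of RNA with a known strand. The controls with sense reads, 41 in replicate 1 and 48 in replicate 2, had 0 single-exon antisense reads beside 13512 and 16500 sense reads, which allows up to 0.0222% and 0.0182%. For annotated genes the same share was 6.08% in replicate 1 and 4.14% in replicate 2. Over all controls it was 0.786% and 0.704%, all of it from 4 further controls that had antisense reads and no sense reads: ERCC-00009 had 81 and 90, ERCC-00116 22 and 23, and ERCC-00059 and ERCC-00099 2 in each library. Why those 4 were read on 1 strand only was not tested.

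Genes of steroid synthesis and cholesterol supply carried loci in 9 of 21 cases, 42.9%, beside 32.4% of all 10567 annotated genes with at least 10 reads. The lists were compared with this background by count alone. The 9 genes had 19 loci with 82 and 133 antisense reads in replicates 1 and 2, against 11313 and 18342 sense reads of the whole list. Fdx1, the ferredoxin that passes electrons to mitochondrial cytochromes P450, had an intron locus with 7 and 21 antisense reads, beside 262 and 517 sense reads. Mrap, the accessory protein of the corticotropin receptor, had an intron locus with 11 and 18 reads, beside 99 and 219. Soat1, which esterifies cholesterol, had a last-exon locus with 13 and 12 reads, beside 74 and 90. Star, the carrier of cholesterol into mitochondria, had 10 and 15 antisense reads in an intron, beside 643 and 1294 sense reads, and Nr5a1, the nuclear receptor SF-1, 11 and 8, beside 130 and 183. No locus was found opposite the other 12, among them Cyp11a1, Cyp21a1 and Cyp11b1.

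Chromaffin genes had loci in 7 of 26 cases (26.9%), with 21 and 16 reads in replicates 1 and 2. Snap25, a SNARE protein of vesicle release, had 6 and 1 antisense reads, beside 15 and 20 sense reads, and Slc18a1, a vesicular monoamine transporter, 1 and 4, beside 8 and 9. Both are too low to say in which library they were higher.

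Imprinted genes had loci in 8 of the 15 with at least 10 reads (53.3%), and 11 of the 20 listed genes had at least 1 locus. Meg3, a maternally expressed noncoding RNA, had 2 intron loci among the named ones, with 10 and 7 reads and with 11 and 5 reads in replicates 1 and 2, beside 98 and 68 sense reads of the gene. Rian, a noncoding RNA of the same domain, had a last-exon locus with 7 and 4 reads, beside 7 and 3 sense reads.

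Adipose genes had loci in 4 of 14 cases (28.6%), with 120 and 171 reads, most of them opposite Plin1, which coats the lipid droplets of adipocytes. Its last-exon locus had 96 and 142 antisense reads, beside 223 and 295 sense reads, and a second locus in its introns 8 and 11. Prdm16, a transcriptional regulator of brown fat, had 5 and 7 reads, where the annotated gene Gm13111 lies on the locus strand. Loci lay opposite Plin1 and Cidea among the 5 adipocyte markers, whose summed sense reads differ between the libraries as given above.

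2 large families of highly expressed genes were counted as well, and their shares were not tested against the 32.4%. Subunits and assembly factors of the respiratory chain and ATP synthase had loci in 29 of 94 cases (30.9%), with 80 and 109 antisense reads beside 45117 and 77863 sense reads. Atp5g2, which encodes subunit c of ATP synthase, had 7 and 15 antisense reads, Ndufs6 of complex I 10 and 7, and Ndufa13 of complex I 0 and 12. Cytosolic ribosomal proteins had loci in 10 of 84 cases (11.9%), the lowest share of the 6 lists, with 20 and 10 reads beside 16677 and 28638 sense reads. Rps24 had 4 and 2 antisense reads, Rps7 4 and 0, and Rpl26 2 and 1. Ribosomal protein genes have many near-identical pseudogenes, which makes their counts uncertain. How far this bears on the counts was not tested, and no list share was scaled by gene length.

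Between the libraries, 53 of 846 loci with at least 10 reads passed the call rule (6.26%), beside 4.06% of the 11413 genes and loci tested and 3.88% of the 10567 annotated genes alone. The rule was a two-sided exact binomial test of the reads against the library totals, with Benjamini-Hochberg adjustment over all genes and loci and a fold of at least 2. It compares 2 libraries and not 2 conditions. The read minimum that chose the loci enters these counts: 31 of the 53 had a model of at least 2 reads in 1 library only. That favours a difference between the libraries but does not force a call. The count of 53 is therefore a description. Of the 808 loci with such models in both libraries, 22 passed (2.72%), beside the 3.88% of annotated genes; this set was formed after the data were seen. Over all 53, 35 were higher in replicate 1 and 18 in replicate 2 (annotated genes 2.9% and 0.984%), but 29 and 21 of 50 with TMM or DESeq2 scaling, and 6 and 7 of 13 by the edgeR exact test with a common dispersion, which allows for spread between libraries.

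Among the 53, 27 had 0 antisense reads in 1 library, and 20 of these had reads of another model on the same strand there. The locus opposite Gm26825, 86 bases long, was empty in replicate 1 and held 565 reads in replicate 2. The annotated gene Gm15459 lies on its strand, and reads of any model on that strand were 573 and 817. The locus opposite Pitpna, a phosphatidylinositol transfer protein, held 150 reads in replicate 1 and none in replicate 2, while all models on that strand, where Gm12338 is annotated, had 267 and 508. The locus opposite Zfp839 had 0 and 169 reads, and all models on its strand, that of Mpc1-ps, 116 and 209. These 3 loci entered through 1 library, so no p is given for them, and reads were present on their strand in both libraries.

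The loci that follow had models in both libraries and passed the rule. Gm26917 was higher in replicate 1, at 3986 CPM against 1692 CPM in replicate 2 (log2 ratio 1.24, adjusted p = 1.48e-140, exact binomial), with 2366 and 1306 reads of any model on the strand. Ptp4a1 was higher in replicate 2, with a ratio of replicate 2 over replicate 1 of 2.61 (interval 1.66 to 4.26). Klhl31 was higher in replicate 1, with a ratio of replicate 1 over replicate 2 of 3.22 (1.85 to 5.81). An intron locus opposite Slc34a1, the sodium phosphate transporter of the kidney proximal tubule, had 2 reads in replicate 1 and 78 in replicate 2 (adjusted p = 6.19e-15, exact binomial), and was named after its values were seen. The sense reads of Slc34a1 were 0 and 200, and the 4 kidney markers together had 0 and 440 reads; the part of kidney RNA in this difference was not tested. Further abundant loci, opposite Actb, Nfia, Tubb5 and Plin1, did not pass the test, with 95% intervals of the ratio of replicate 1 over replicate 2 of 0.963 to 1.26 for Actb, 0.721 to 1.14 for Nfia, 0.737 to 1.26 for Tubb5 and 0.672 to 1.15 for Plin1.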

How the data were processed

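Each of the 2 libraries was deposited as a table of whole-number read counts per transcript model, with models made by TALON per the file headers of the annotation (mm10, GENCODE M21); the aligner is not given in the sources used here. The authors listed only models with at least 1 read. CPM was computed here from the reads left after the spike-in controls.

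Members, lists and tests were chosen with earlier results of these data known. Models of the antisense class, 1 exon and at least 2 reads were merged, and a locus' reads include its 1-read models. Gene and exon positions came from GENCODE M21 (GRCm38). A locus took the class (last, first, internal exon, intron) of most of its bases within the opposite gene. No genome sequence was used, so ends were read only from GENCODE M21 transcripts. Named were the loci with most reads, overall and per position, the highest antisense shares, the largest folds, and up to 3 per gene list. A few loci named by this rule are not reported here.

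Counts were tested with a two-sided exact binomial test (SciPy 1.17.1), Benjamini-Hochberg adjusted, after a check on simulated data; 1 library per side leaves no residual degrees of freedom. Alternatives used edgeR 4.0.16 and DESeq2 1.42.0 size factors, other read minimums and merging, and leaving out each library. The intervals are exact binomial intervals (95%), and the depth of 593058 and 772037 reads in replicates 1 and 2 sets their width.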

Additional observations from a re-analysis of the deposited data

How the results depend on the processing

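Without a read minimum there were 22733 loci, with at least 3 reads 3350 and with at least 5 reads 1409, against 6827; leaving out a replicate gave 3971 to 4984. The share in both libraries, 30.1%, was 35.0% and 40.0% at minimums of 3 and 5 reads, 28.9% with merging at 50% overlap, 56.7% with 1 read in the other library and 60.1% with any model of that strand there (added after seeing the data). Last exons held 16.6%, but 11.7% without a minimum, 29.6% at 5 reads, 12.6% with the annotated transcript of most reads alone and 17.5 to 20.5% without a replicate. First exons held 2.33% with that transcript and 3.29 to 5.16% without a replicate. Gene bodies held 75.8%, and 82.2%, 61.7%, 82.5% and 70.2 to 75.6% under the same settings as last exons. The A-rich share, whose alternatives were all added after seeing the data, was 79.8% without a minimum, 79.8% at 5 reads, 83.2% and 67.4% at 10 and 15 A, 59.5% with ends on annotated boundaries and 80.6 to 80.8% without a replicate. The median antisense share of 10.6% became 100% against overlapping sense reads only, since 51.9% of the pairs had no such read. Without a replicate the median was 15 to 16.7%. Of loci that differed between the libraries there were 53, and 50 each with TMM and DESeq2 scaling (47 of them among the 53 in each case), 13 by the edgeR exact test and 22 with models in both libraries (added after seeing the data); the cause of the changes was otherwise not tested.

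No paired analysis was possible because there is 1 group. Most loci rest on 2 to 3 reads, which limits what their absence from a library shows. Deposited ends are model ends, often on annotated boundaries, and few intron ends were read. The comparison of libraries takes counting error alone, and 1 or 2 animals cannot be told apart.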
